A study of Mus musculus with 15 samples.

Results

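The orphan nuclear receptors Nr4a1, Nr4a2 and Nr4a3, the zinc finger factors Egr1, Egr2 and Egr3 and the Egr corepressors Nab1 and Nab2 are described here in maturing mouse thymocytes. They were taken by gene symbol from the annotation of the array platform. That rule used no measured value, but the genes were chosen with earlier results of these data known. All 8 genes were found among the 18193 genes measured, and all 8 were among the 11871 genes tested. Where a gene had several probe sets, the one brightest on average over the 15 Affymetrix arrays was used.

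Thymocytes on a C57BL/6 background were sorted into 5 groups of 3 samples, with 1 array per sample. PreDP cells were CD69- TCRβ- double-positive thymocytes of B2m-/- mice, and PostDP cells were CD69+ TCRβ+ double-positive thymocytes of the same line. B2m is the light chain of MHC class I, and mice without it select few CD8 T cells, so both groups lack most class I selection. Tak1-deficient SM&M1 cells were Qa2- CD69+ CD4 single-positive thymocytes of Tak1f/f CD4Cre mice, in which Cre driven by CD4 sequences deletes the kinase gene Map3k7 in T lineage cells. SM&M1 cells had the same Qa2- CD69+ surface phenotype and M2 cells were Qa2+ CD69- CD4 single-positive thymocytes, both from Rag2-GFP BAC transgenic mice, whose reporter marks recently formed T cells. For the Rag2-GFP mice the labels give a dump of NK1.1, CD25 and GL3 staining and a GFP gate, and they state neither for the Tak1f/f CD4Cre mice. SM&M1 and M2 mice carried no Cre and were of another line, so loss of Tak1, presence of Cre and mouse line cannot be told apart. Mouse line also changes between the double-positive and the single-positive groups, so stage and line cannot be told apart in those comparisons.

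When a T cell receptor is engaged, the Ras-ERK cascade acts on ternary complex and serum response factors at the Egr genes, and calcium signalling releases MEF2 factors from class II histone deacetylases at Nr4a1. Both families are immediate-early genes whose transcripts appear before new protein is made, and Nr4a1 is widely used as a reporter of receptor signal strength. Egr proteins bind GC-rich sites and take part in positive selection of thymocytes. Nr4a proteins bind without a known ligand and are linked in thymocytes to negative selection and to regulatory T cell development. Nab1 and Nab2 bind a repression domain of Egr1, Egr2 and Egr3 and limit their activity, and Nab2 is itself induced by Egr factors.

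Before the values, the start-site sequences of 4 of these genes show what kinds of sites lie next to them. RefSeq promoter sequences of build GRCm38.p6, from 250 bases before to 50 bases after the annotated start, were examined for 6 of the 8 genes. The start sites of Egr1 and Egr3 were not examined here. Capitals mark matches, on either strand, to the Egr site GCGNGGGCG, the cyclic AMP response half-site TGACG, the AP-1-like sequence TGCGTCA, the ETS core CCGGAA and the CArG box bound by serum response factor. Nr4a1, on the plus strand at chr15:101266596-101266895, and Nr4a3, on the plus strand at chr4:48045055-48045354, are shown as the receptors with the largest rises. Egr2, on the plus strand at chr10:67537620-67537919, is shown for its CArG box, and is 1 of 5 annotated starts of that gene. Nab1, on the minus strand at chr1:52500399-52500698, is shown for its Egr sites.
Nr4a1: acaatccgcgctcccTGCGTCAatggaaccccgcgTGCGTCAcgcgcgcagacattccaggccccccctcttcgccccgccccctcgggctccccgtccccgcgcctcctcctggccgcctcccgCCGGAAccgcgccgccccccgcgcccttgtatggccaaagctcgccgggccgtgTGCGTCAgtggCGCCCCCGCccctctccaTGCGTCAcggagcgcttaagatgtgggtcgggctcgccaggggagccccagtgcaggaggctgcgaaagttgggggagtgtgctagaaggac
Nr4a3: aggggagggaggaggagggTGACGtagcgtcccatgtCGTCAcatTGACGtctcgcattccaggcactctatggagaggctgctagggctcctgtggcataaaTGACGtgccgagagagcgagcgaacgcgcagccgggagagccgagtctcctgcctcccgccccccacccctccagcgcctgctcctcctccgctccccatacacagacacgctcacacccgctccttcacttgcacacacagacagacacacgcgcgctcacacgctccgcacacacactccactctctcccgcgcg
Egr2: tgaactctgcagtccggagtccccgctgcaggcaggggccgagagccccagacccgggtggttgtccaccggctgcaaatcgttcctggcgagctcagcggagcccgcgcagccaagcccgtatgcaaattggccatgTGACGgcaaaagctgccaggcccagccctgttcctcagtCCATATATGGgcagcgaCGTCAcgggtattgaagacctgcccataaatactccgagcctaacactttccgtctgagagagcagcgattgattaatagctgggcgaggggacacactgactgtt
Nab1: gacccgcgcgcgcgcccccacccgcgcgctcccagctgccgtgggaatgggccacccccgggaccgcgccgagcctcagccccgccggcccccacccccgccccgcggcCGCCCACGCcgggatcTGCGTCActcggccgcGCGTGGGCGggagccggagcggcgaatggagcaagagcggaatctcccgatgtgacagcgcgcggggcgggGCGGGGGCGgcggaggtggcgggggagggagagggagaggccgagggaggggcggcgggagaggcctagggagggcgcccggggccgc
The Nr4a1 window held TGCGTCA at 4 places, from -235, -215, -71 and -42 relative to the start, beside 1 Egr site and 1 ETS core. TGCGTCA was present in 2.12% of all 32851 promoters of the same length. Each TGCGTCA also contains CGTCA, the half-site read on the other strand, which occurred in 20.8% of promoters. The Nr4a3 window held 4 half-sites and none of the other motifs. The Egr2 window held a CArG box from -73 to -64, a motif present in 1.63% of promoters, between 2 half-sites. The Nab1 window held 3 Egr sites, from -141, -109 and -38, where 5.55% of promoters held at least 1. It was 81.7% G or C, and the shares of promoters were not matched for base content. Among the windows not printed, that of Nr4a2 held 4 half-sites, 1 Egr site and 1 MEF2 site, and MEF2 sites were present in 3.19% of promoters. The Nab2 window held none of these motifs. The Nr4a response element AAAGGTCA, present in 1.51% of promoters, and the full cyclic AMP response element TGACGTCA, present in 1.79%, occurred in no window of the 6 genes. The ETS core was present in 14.9% of promoters. TGCGTCA and TGACG were chosen with these sequences in view, and a match is a description of letters only.

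Array 2 of the Tak1-deficient SM&M1 group did not resemble the others. Its median signal was 167.81, against 80.52 to 121.46 on the other 14 arrays, its Actb 3' to 5' signal ratio was 1.62, against 1.02 to 1.18, and it correlated with its group mates at 0.873 and 0.879, while arrays within each of the other groups correlated at 0.965 or more. Values of the 8 genes that rest on it are given with and without it. Map3k7 averaged 5.39 ± 0.65 on the log2 scale in Tak1-deficient SM&M1 cells and 10.42 ± 0.03 in SM&M1 cells (SD, n = 3 each). B2m averaged 9.67 ± 0.11 and 10.10 ± 0.07 in the B2m-/- PreDP and PostDP cells, and 14.36 ± 0.33 and 14.57 ± 0.26 in SM&M1 and M2 cells. Cd8a averaged 13.89, 12.74, 7.79 and 6.52 in the same order of stages and 9.63 in Tak1-deficient SM&M1 cells. Macrophage and myeloid markers were high on 4 arrays. Above the array median stood 7 of 12 such markers on Tak1-deficient SM&M1 array 2, 9 on Tak1-deficient array 3, 6 on SM&M1 array 1 and 8 on M2 array 1, against 2 to 5 on each of the other 11. No marker was listed at 0 on any array. The female transcript Xist and the male transcript Eif2s3y were both high on every SM&M1 and M2 array, with Xist at 13.06 to 13.78 and Eif2s3y at 9.62 to 10.98. In the other groups they varied between arrays, Xist from 7.19 to 13.65 in PreDP, 7.6 to 13.99 in PostDP and 7.42 to 14.01 in Tak1-deficient cells. Eif2s3y ran from 4.1 to 11.73, 4.11 to 11.33 and 4.33 to 11.49 in the same order. The part of sex in the differences was not tested, and the labels do not say whether animals were pooled.

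PostDP cells against PreDP cells compare double-positive thymocytes after and before receptor signalling. All 8 genes were higher in PostDP cells, by 1.13 to 6.79 on the log2 scale, and all 8 passed limma's test at an adjusted p under 0.05, the threshold used throughout. Of all genes tested, 7.35% passed as higher in PostDP cells. The PostDP and PreDP arrays did not overlap for any of the 8, where 19.1% of tested genes stood apart with PostDP higher. The median change was 4.55 over the 8 genes and 0.015 over all genes tested. In bulk samples, fewer cells of a type and less RNA per cell cannot be told apart.

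**Figure D1:**
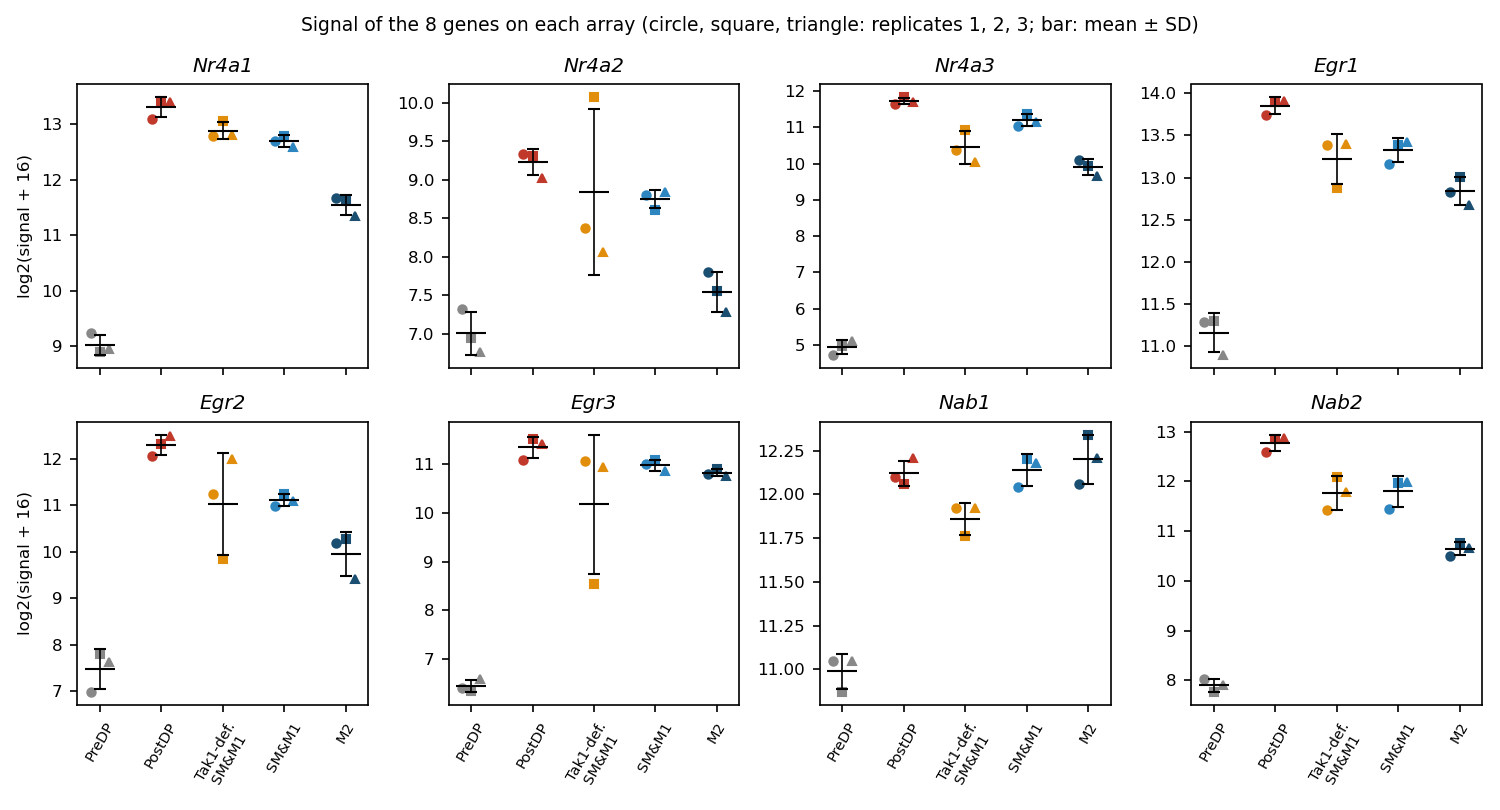
Level of each of the 8 genes as log2(signal + 16) on every array of the PreDP, PostDP, Tak1-deficient SM&M1, SM&M1 and M2 groups, with circles, squares and triangles for replicates 1, 2 and 3 and bars for the mean ± SD (vertical scales differ between genes and do not start at 0). All 8 genes sit higher on the 3 PostDP arrays than on the 3 PreDP arrays, and on the M2 arrays 7 of the 8 still sit above every PreDP array.

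Nr4a1 (probe set 1416505_at), the family member most used as a signal reporter, had signals of 8785, 10912 and 10825 on the PostDP arrays and 585.3, 458.2 and 479 on the PreDP arrays. Every PostDP array was far above every PreDP array, and the log2 change was 4.28 ± 0.16 (SE, adjusted p = 2.41e-09). Nr4a3 (1438796_at), its close relative, had signals of 3189, 3617 and 3343 on the PostDP arrays and 10.5, 15.6 and 18.7 on the PreDP arrays. The PreDP signals of Nr4a3 lay below the array median on all 3 arrays, so its log2 change of 6.79 ± 0.21 depends on the 16 units added before taking logs (adjusted p = 9.71e-10). With 1 unit added the change was 7.76, and with the mean of all 3 Nr4a3 probe sets it was 2.88. Nr4a2 (1447863_s_at), the third receptor, had signals of 632.1, 618.6 and 506.8 on the PostDP arrays and 143.8, 107.6 and 92.7 on the PreDP arrays. Its groups were apart too, with a smaller log2 change of 2.22 ± 0.39 (adjusted p = 0.00152).

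Egr1 (1417065_at), the most studied immediate-early member of its family, had signals of 13631, 15201 and 15404 on the PostDP arrays and 2494, 2499 and 1901 on the PreDP arrays. It was well above the array median before as well as after signalling, and its log2 change was 2.68 ± 0.18 (adjusted p = 4.2e-07). Egr2 (1427683_at), which limits cytokine and effector programmes in mature T cells, had signals of 4229, 5083 and 5737 on the PostDP arrays and 110.4, 207.5 and 182.1 on the PreDP arrays. Its log2 change was 4.81 ± 0.43 (adjusted p = 5.54e-06). Egr3 (1436329_at), which acts beside Egr2, had signals of 2176, 2935 and 2706 on the PostDP arrays and 68.5, 64.5 and 79.5 on the PreDP arrays, where it lay below the array median. Its log2 change was 4.91 ± 0.48 (adjusted p = 1.27e-05). Egr4, the remaining family member, averaged 6.19 ± 0.19 in PostDP and 5.89 ± 0.46 in PreDP cells on the log2 scale (SD, n = 3 each) and did not pass in any comparison of neighbouring groups.

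The corepressors differed in how far they moved. Nab2 (1417930_at) had signals of 6161, 7441 and 7527 on the PostDP arrays and 244.3, 201.5 and 223.7 on the PreDP arrays, a log2 change of 4.88 ± 0.20 (adjusted p = 3.68e-09). Nab1 (1417624_at), its relative, had signals of 4373, 4263 and 4708 on the PostDP arrays and 2109.5, 1862 and 2101 on the PreDP arrays, a log2 change of 1.13 ± 0.13 (adjusted p = 6.23e-05). Nab2 minus Nab1 within each array was 0.49, 0.80 and 0.68 in PostDP cells and -3.03, -3.11 and -3.14 in PreDP cells, so the balance between the 2 probe sets shifted by 3.75. An exact two-sided permutation test gave p = 0.1, the smallest that 3 arrays against 3 allow, and 0.114 after adjustment over the 8 such differences computed, whose gene pairs were chosen after their values were seen.

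**Figure D2:**
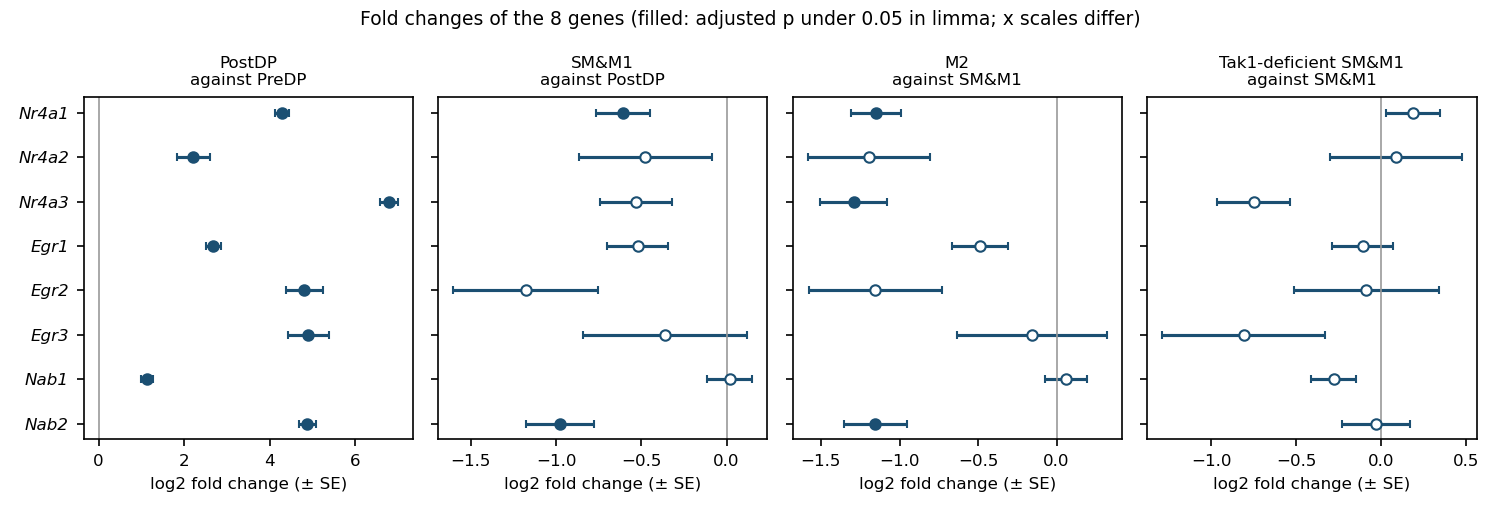
Log2 fold change of each gene in 4 comparisons, first-named group over the second, with bars for the standard error of the limma fit, filled points where the adjusted p was under 0.05, and a different horizontal scale in each panel. Changes run from 1.13 to 6.79 in PostDP against PreDP cells, and in M2 against SM&M1 cells Egr3 and Nab1 lie at -0.16 and 0.06 while the other 6 lie between -1.29 and -0.49.

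SM&M1 cells against PostDP cells compare early CD4 single-positive thymocytes with signalled double-positive ones. Nab2 and Nr4a1 were lower in SM&M1 cells and passed, where 4.14% of tested genes passed as lower. The other 6 did not pass, although 7 of the 8 genes, all but Nab1, had every SM&M1 array below every PostDP array, against 17.9% of tested genes. The median change was -0.53 over the 8 genes and 0.026 over all genes tested. Nab2 had SM&M1 signals of 2766, 4009 and 4036, against the PostDP range of 6161 to 7527, and fell by 0.98 ± 0.20 on the log2 scale (adjusted p = 0.006). Nr4a1 had SM&M1 signals of 6696, 7121 and 6147, against the PostDP range of 8785 to 10912, and fell by 0.61 ± 0.16 (adjusted p = 0.0246). The Nr4a1 call was lost with arrays centred on their medians (adjusted p = 0.2), with no filter on dim genes (0.0576), or without SM&M1 array 1 (0.0689), SM&M1 array 3 (0.1), PostDP array 2 (0.0982) or PostDP array 3 (0.0972), or with SM&M1 array 1 and M2 array 1 both left out (0.0874).

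The remaining 6 genes did not pass between SM&M1 and PostDP cells, among them Egr2, whose difference was the largest of the 8. Egr2 averaged 11.11 ± 0.13 in SM&M1 and 12.29 ± 0.22 in PostDP cells (SD, n = 3 each), a log2 difference of -1.18 ± 0.43 (adjusted p = 0.0959). Egr1 averaged 13.33 ± 0.14 in SM&M1 and 13.85 ± 0.10 in PostDP cells (adjusted p = 0.0804), and Nr4a3 averaged 11.20 ± 0.17 in SM&M1 and 11.73 ± 0.09 in PostDP cells (adjusted p = 0.138). When Tak1-deficient array 2 was left out of the shared estimate of spread, these 3 genes passed as well, with adjusted p of 0.0087 for Egr2, 0.0175 for Egr1 and 0.0285 for Nr4a3, so that 5 genes passed. In that fit 2726 of all genes tested passed in either direction, against 1423 in the main fit. Egr3 averaged 10.98 ± 0.12 in SM&M1 and 11.35 ± 0.22 in PostDP cells (adjusted p = 0.736), and Nr4a2 averaged 8.75 ± 0.12 in SM&M1 and 9.23 ± 0.17 in PostDP cells (adjusted p = 0.528). Nab1 was the gene with no lower mean, at 12.14 ± 0.09 in SM&M1 and 12.12 ± 0.07 in PostDP cells (adjusted p = 0.96).

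M2 cells against SM&M1 cells compare later with earlier CD4 single-positive thymocytes of the same mouse line. Nr4a1, Nr4a3 and Nab2 were lower in M2 cells and passed, where 1.38% of tested genes passed as lower and 0.952% as higher. The arrays did not overlap, with M2 lower, for 6 of the 8 genes, all but Egr3 and Nab1, against 13.1% of tested genes. The median change was -1.15 over the 8 genes and -0.005 over all genes tested. Nr4a1 had M2 signals of 3253, 3158 and 2589, against SM&M1 signals of 6696, 7121 and 6147, and fell by 1.15 ± 0.16 on the log2 scale (adjusted p = 0.00199). Nr4a3 had M2 signals of 1089, 974 and 792, against SM&M1 signals of 2109, 2655 and 2266, and fell by 1.29 ± 0.21 (adjusted p = 0.00699). Both receptors were below their lowest SM&M1 signal on every M2 array. Nab2 had M2 signals of 1432, 1722 and 1618, against SM&M1 signals of 2766, 4009 and 4036, and fell by 1.15 ± 0.20 (adjusted p = 0.00903).

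The third receptor did not pass between these stages in the main fit, but passed in some alternatives. Nr4a2 had M2 signals of 209.1, 173 and 140.1, against SM&M1 signals of 429.9, 375 and 442.6, a log2 difference of -1.20 ± 0.39 (adjusted p = 0.181). Nr4a2 passed in a fit of M2 and SM&M1 cells alone, at an adjusted p of 0.0149 without and 0.0327 with replicate number, which paired these samples, as a block. Without Tak1-deficient array 2 in the shared spread it passed too (adjusted p = 0.00175), as did Egr2 (0.0274), so that 5 genes passed. In that fit 672 of all genes tested passed in either direction, against 277 in the main fit. The Nab2 call was lost without SM&M1 array 3 (adjusted p = 0.0584) and that of Nr4a3 with the mean of its probe sets (-0.81, adjusted p = 0.456).

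Among the Egr genes no difference between M2 and SM&M1 cells passed. Egr2 had M2 signals of 1146, 1217 and 664.7, against SM&M1 signals of 2021, 2408 and 2155, a log2 difference of -1.15 ± 0.43 (adjusted p = 0.277). Egr1 had M2 signals of 7267, 8254 and 6524, against SM&M1 signals of 9169, 10717 and 10956, a log2 difference of -0.49 ± 0.18 (adjusted p = 0.277). The M2 arrays lay below the SM&M1 arrays for both genes. Egr3 had M2 signals of 1769.6, 1902 and 1734, against SM&M1 signals of 2033, 2174 and 1836, a log2 difference of -0.16 ± 0.48 (adjusted p = 0.996). Its groups overlapped, and so did those of Nab1, with M2 signals of 4249, 5173 and 4709 against SM&M1 signals of 4209, 4689 and 4637 (log2 difference 0.06 ± 0.13, adjusted p = 0.996).

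Differences taken within each array compare how pairs of these genes moved. Nr4a1 minus Egr3 was 0.87, 0.73 and 0.57 in M2 cells and 1.71, 1.70 and 1.73 in SM&M1 cells, a shift of -0.99. Nab2 minus Nab1 was -1.56, -1.58 and -1.53 in M2 cells and -0.60, -0.23 and -0.20 in SM&M1 cells, a shift of -1.21. Neither set of 3 overlapped the other, and the exact two-sided permutation test gave p = 0.1 for each, the smallest possible, with 0.114 after adjustment.

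Markers of other cells moved with some of these arrays. The median macrophage and myeloid marker stood 1.47 above the PreDP mean on M2 array 1 and 1.40 on SM&M1 array 1, and between -0.07 and 0.29 on the other M2 and SM&M1 arrays. The 12 markers summed to 806 to 4788 in M2 and 597 to 4498 in SM&M1 cells. On the same 2 arrays all 9 NKT and innate-like markers and all 9 effector or memory markers stood above the array median, with medians of 2.48 and 2.24 above the PreDP mean on M2 array 1 and of 3.08 and 1.78 on SM&M1 array 1. Dendritic cell markers had medians of 1.5 on M2 array 1 and 1.22 on SM&M1 array 1, against -0.40 to 0.50 on the other M2 and SM&M1 arrays. The summed signal of 8 regulatory T cell markers differed between the groups themselves, at 11057 to 12662 in M2 and 15816 to 22299 in SM&M1 cells. Their medians above the PreDP mean overlapped, at 1.67 to 1.77 in M2 and 1.75 to 2.07 in SM&M1 cells. Of 7 tested, Ikzf2 alone was lower in M2 cells and passed, and it is also among the Nr4a-linked genes described further on. Foxp3, too dim to be tested, was higher in M2 cells, at 7.16 ± 0.23 against 6.33 ± 0.22 in SM&M1 cells (SD, n = 3 each). The part of these cells in the differences was not tested. With both high arrays left out, an alternative added after seeing the data, the same 3 genes passed, with log2 changes of -1.21 for Nr4a1 (adjusted p = 0.0221), -1.47 for Nr4a3 (0.03) and -1.26 for Nab2 (0.0254).

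M2 cells against PreDP cells set the end of the series beside its start. The genes Nr4a1, Nr4a3, Egr1, Egr2, Egr3, Nab1 and Nab2 were higher in M2 cells and passed, where 14.6% of tested genes passed as higher. The same 7 genes had every M2 array above every PreDP array, against 24.6% of tested genes. Their log2 changes were 4.96 ± 0.21 for Nr4a3, 4.39 ± 0.48 for Egr3, 2.75 ± 0.20 for Nab2, 2.53 ± 0.16 for Nr4a1, 2.48 ± 0.43 for Egr2, 1.67 ± 0.18 for Egr1 and 1.21 ± 0.13 for Nab1. Nr4a2 had M2 signals of 209.1, 173 and 140.1, against PreDP signals of 143.8, 107.6 and 92.7, and the groups overlapped (log2 difference 0.54 ± 0.39, adjusted p = 0.352). It passed without Tak1-deficient array 2 (adjusted p = 0.028), where 4699 of all genes tested passed in either direction, against 3222 in the main fit.

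The share of the PostDP rise that each gene kept was taken as its log2 level above the PreDP mean, as a percentage of the rise of the PostDP mean. In M2 cells it was 107.0 ± 12.5% for Nab1 and 89.4 ± 1.4% for Egr3 (SD over 3 arrays). It was 73.1 ± 3.4% for Nr4a3, 62.4 ± 6.3% for Egr1, 59.0 ± 4.2% for Nr4a1, 56.3 ± 2.7% for Nab2 and 51.5 ± 9.8% for Egr2. Nr4a2 kept the smallest share, 24.5 ± 11.9%. The share depends on the size of each gene's own rise, which was 2.22 for Nr4a2 and 6.79 for Nr4a3. It therefore does not rank the genes by how far they fell. From PostDP to M2 cells the log2 mean of Nr4a2 fell no further than those of Nr4a1, Nr4a3, Egr2 and Nab2. It fell further than those of Egr1 and Egr3, and that of Nab1 did not fall. In SM&M1 cells the shares lay closer together, between 75.5 ± 2.6% for Egr2 and 101.8 ± 7.5% for Nab1, with Egr3 at 92.6 ± 2.5% and Nr4a3 at 92.2 ± 2.5%. The shares of Egr3 overlapped between M2 and SM&M1 cells, while the M2 arrays of Nr4a1 and Nab2 lay below all their SM&M1 arrays.

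**Figure D3:**
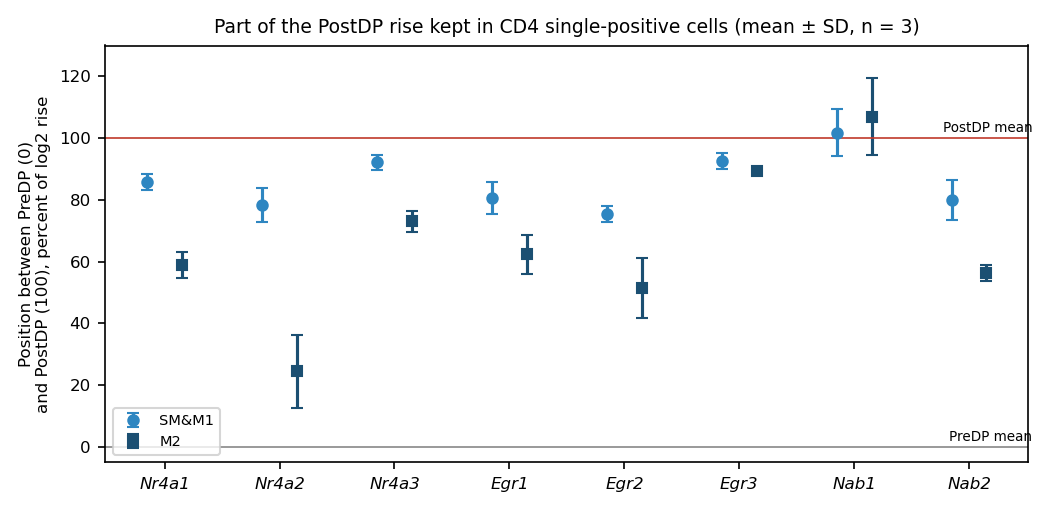
Percentage of the log2 rise in PostDP over PreDP cells that each gene kept in SM&M1 cells (circles) and M2 cells (squares), as mean ± SD of 3 arrays, with lines at the PreDP and PostDP means. In M2 cells Nab1 and Egr3 are at 107.0% and 89.4%, and Nr4a2 is the lowest at 24.5%.

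Tak1-deficient SM&M1 cells against SM&M1 cells compare cells of 1 sorted surface phenotype from different mouse lines. Loss of Tak1, presence of Cre and mouse line cannot be told apart in it. None of the 8 genes passed limma's test, where 1.69% of tested genes passed in either direction and 1.26% as lower, and 1 gene had an unadjusted p under 0.05. The median change was -0.10 over the 8 genes and 0.054 over all genes tested. Groups stood apart with Tak1-deficient cells lower for Nr4a3 and Nab1, against 9.01% of tested genes, and also for Nr4a2 without array 2. The 9.01% is for all 3 Tak1-deficient arrays, and with array 2 left out groups stand apart more easily. The log2 difference of Nr4a2 was 0.08 with array 2 and -0.53 without it. Nr4a3 had signals of 1316, 1931 and 1035 in Tak1-deficient cells and 2109, 2655 and 2266 in SM&M1 cells, a log2 difference of -0.75 ± 0.21 (adjusted p = 0.101). Nab1 had signals of 3852, 3441 and 3862 in Tak1-deficient cells and 4209, 4689 and 4637 in SM&M1 cells, a log2 difference of -0.28 ± 0.13 (adjusted p = 0.29). Nr4a1 had signals of 7101, 8504 and 7165 in Tak1-deficient cells and 6696, 7121 and 6147 in SM&M1 cells, a log2 difference of 0.19 ± 0.16. Tak1-deficient array 1 lay within the SM&M1 range and the other Tak1-deficient arrays above it.

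For several genes array 2 lay far from the other Tak1-deficient arrays. Egr3 had signals of 2119, 352.4 and 1953 in Tak1-deficient cells and 2033, 2174 and 1836 in SM&M1 cells. Egr2 had signals of 2406, 898.2 and 4015 in Tak1-deficient cells and 2021, 2408 and 2155 in SM&M1 cells. Nr4a2 had signals of 316.7, 1058 and 250.7 in Tak1-deficient cells and 429.9, 375 and 442.6 in SM&M1 cells. On the log2 scale, array 2 differed from the mean of the other Tak1-deficient arrays by -2.48 for Egr3, -1.77 for Egr2 and 1.85 for Nr4a2 on the probe sets used. Some other probe sets went the opposite way. Egr3 probe set 1421486_at stood at 10.4 on array 2, against 7.25 on array 1 and 6.75 on array 3. Nr4a2 probe set 1455034_at stood at 5.27, against 8.14 and 8.11, while every other Nr4a2 probe set was highest on array 2. The second Egr2 probe set was lowest there, at 9.9 against 11.11 and 12.04. Without array 2 the log2 difference from SM&M1 cells was 0.02 for Egr3, 0.50 for Egr2, 0.06 for Egr1, 0.10 for Nr4a1 and -0.19 for Nab2. It was -0.53 for Nr4a2, -0.22 for Nab1 and -0.99 for Nr4a3, and Nr4a3 alone of the 8 genes then passed (adjusted p = 0.0107). In that fit 347 of all genes tested passed in either direction, against 201 in the main fit. The macrophage and myeloid markers were highest on Tak1-deficient arrays 2 and 3, with medians 2.22 and 2.10 above the PreDP mean against 0.21 on array 1, and summed to 998 to 6204 in Tak1-deficient and 597 to 4498 in SM&M1 cells. Medians of NKT and innate-like markers were 2.32 and 2.36 on arrays 2 and 3 against 0.87 on array 1. Those of gamma delta T cell markers were 1.83 and 1.98 against 1.09. Dendritic cell markers stood at 1.85 and 0.65 against 0.1, and effector or memory markers at -0.24 and 1.84 against 0.33. Regulatory T cell markers summed to 12259 to 14040 in Tak1-deficient and 15816 to 22299 in SM&M1 cells. Of 7 tested, 3 were lower in Tak1-deficient cells and passed, where 1.26% of tested genes passed as lower. Nr4a3 was lowest on array 3 and next lowest on array 1. The part of other cells in these differences was not tested.

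**Figure D4:**
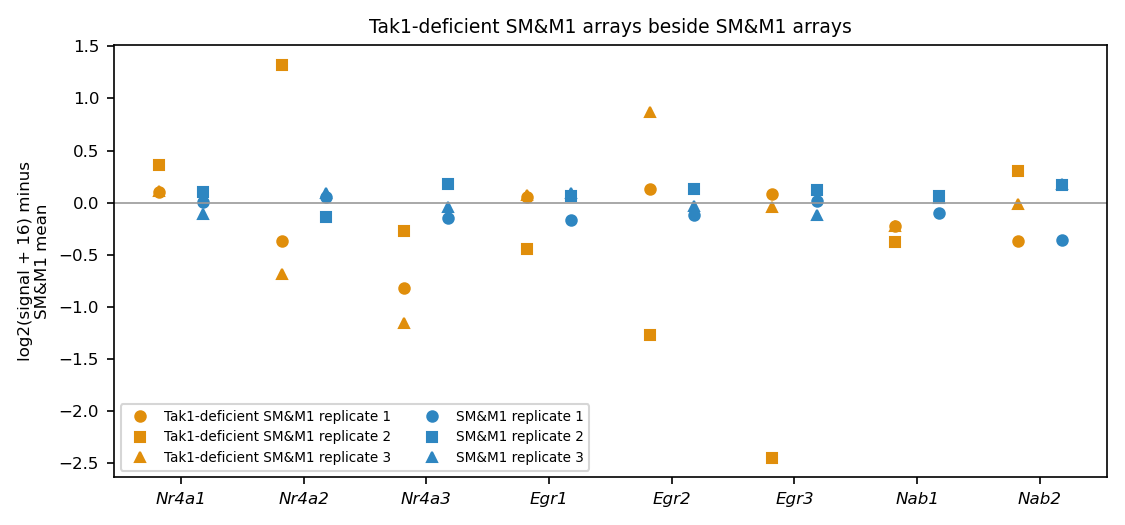
Difference of each Tak1-deficient SM&M1 array (orange) and each SM&M1 array (blue) from the SM&M1 mean, in log2(signal + 16) units, with circles, squares and triangles for replicates 1, 2 and 3. On the probe sets used, the square of Tak1-deficient array 2 lies apart for Egr3, Egr2 and Nr4a2, and all 3 Tak1-deficient arrays lie below 0 for Nr4a3.

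Tak1-deficient SM&M1 cells against PostDP cells set mutant single-positive cells beside B2m-/- double-positive cells that were not Tak1-deficient. Stage, loss of Tak1, presence of Cre and mouse line change together in it and cannot be told apart. Nr4a3, Nab2 and Egr1 were lower in Tak1-deficient cells and passed, where 3.72% of tested genes passed as lower. The log2 changes were -1.28 ± 0.21 for Nr4a3 (adjusted p = 0.00243), -1.01 ± 0.20 for Nab2 (0.00687) and -0.63 ± 0.18 for Egr1 (0.039). In a fit of only these groups no member passed, with adjusted p of 0.0777 for Nr4a3 and 0.105 for Nab2. That fit called 176 of all genes tested. The Egr1 call was also lost, among other settings, with quantile normalization (adjusted p = 0.0658), median centring (0.204) or no filter on dim genes (0.0794). It was lost without PostDP array 1 (0.0743), 2 (0.115) or 3 (0.122), and kept with 1 unit added before logs (0.0413). With the mean of its probe sets Nr4a3 did not pass (-0.51, adjusted p = 0.389). Without array 2, Nr4a3 fell by 1.52 (adjusted p = 0.000208), Nab2 by 1.17 (0.00167), Nr4a2 by 1.01 (0.00563) and Nr4a1 by 0.50 (0.0464), while Egr1 no longer passed (0.0666). In that fit 1776 of all genes tested passed in either direction, against 1292 in the main fit. This comparison and SM&M1 against PostDP share the PostDP arrays.

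PostDP cells were highest for every gene except Nab1, for which the M2, SM&M1 and PostDP ranges overlapped. PreDP cells were lowest for all 8 genes, and their arrays lay below the next group for all but Nr4a2. From the top, Nr4a3, Egr1, Egr2 and Nab2 ran PostDP, SM&M1, Tak1-deficient SM&M1, M2 and PreDP, while Nr4a1 and Nr4a2 ran PostDP, Tak1-deficient SM&M1, SM&M1, M2 and PreDP. The place of Tak1-deficient cells depended on array 2 for several genes. Without it, Egr1 and Egr2 averaged 13.39 and 11.61 in Tak1-deficient cells, against 13.33 and 11.11 in SM&M1 cells, whose ranges overlapped theirs, and the M2 arrays lay below both. Egr3 stood lower in Tak1-deficient than in M2 cells with array 2, and its order without array 2 was PostDP, Tak1-deficient SM&M1, SM&M1, M2 and PreDP. Its Tak1-deficient and SM&M1 ranges overlapped there, as did its SM&M1 and M2 ranges, and its PostDP arrays lay above all of them, though only just, with a lowest PostDP signal of 2175.8 and a highest SM&M1 signal of 2174.1. Nr4a2 without array 2 ran PostDP, SM&M1, Tak1-deficient SM&M1, M2 and PreDP, with only the M2 and PreDP ranges overlapping. The order of Nr4a1, Nr4a3, Nab1 and Nab2 was the same with and without that array. For Nr4a3 the Tak1-deficient and M2 ranges overlapped either way.

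Other probe sets of the same gene did not always behave alike. A second Egr2 probe set (1427682_a_at) was higher in PostDP than PreDP cells by a log2 of 4.77 (adjusted p = 3.59e-06, in a fit over all probe sets) and lower in SM&M1 than PostDP cells, at -1.61 (adjusted p = 0.0217), but differed by 0.02 between M2 and SM&M1 cells, where the brighter one differed by -1.15. A second Egr3 probe set (1421486_at) had a log2 difference of -0.18 in PostDP against PreDP cells (adjusted p = 0.933) and thus showed no rise that passed. Nr4a2 had 4 further probe sets tested, and 1450750_a_at gave 2.34 in PostDP against PreDP (adjusted p = 1.92e-05), -1.05 in M2 against SM&M1 (0.0423) and 0.91 in M2 against PreDP cells (0.012). Of the other 3, 1455034_at and 1450749_a_at rose in PostDP cells by 3.95 (adjusted p = 0.000534) and 2.17 (0.0276), and 1433422_at had 0.40 (0.751). For Nab1, 1448781_at rose by 0.91 in PostDP cells (adjusted p = 0.00338) and 1438819_at had 1.22 (0.0855). The fifth further Nr4a2 probe set and both further Nr4a3 probe sets were too dim to be tested.

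Genes known to act upstream of these reporters were counted next. In PostDP against PreDP cells, 1 of 11 tested regulators of the SRF, ternary complex and MEF2 group rose and 1 fell, with a median change of 0.03. Among all genes tested, 7.57% passed as lower in PostDP cells. Srf, the serum response factor itself, had a log2 change of 0.69 ± 0.18 (adjusted p = 0.0177) and Mef2a, a MEF2 factor, of -1.11 ± 0.15 (0.000197). None of the 7 tested genes of the Ras and ERK cascade passed in either direction, and the other 5 listed, without a probe set specific to them, were not analysed here. Of 11 calcineurin and NFAT genes, 4 rose and 2 fell, with a median of 0.20. Orai1, the pore of the store-operated calcium channel, rose by 2.36 ± 0.18 (adjusted p = 1.73e-06), and the NFAT factor gene Nfatc1 rose by 0.86 ± 0.21 (0.0142). Nfatc3 had a change of -1.63 ± 0.39 (adjusted p = 0.0122) and Itpr2, a calcium release channel, of -1.60 ± 0.17 (3.08e-05). In M2 against SM&M1 cells no tested gene of these 3 lists passed in either direction.

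Genes reported as targets or partners of Nr4a factors were counted beside them. In PostDP against PreDP cells 7 of 9 tested were higher and passed and none was lower, with a median of 2.33. Pdcd1, the inhibitory receptor PD-1, rose by 3.71 ± 0.28 (adjusted p = 1.22e-06), Tox2, an HMG-box factor, by 3.61 ± 0.28 (1.65e-06) and Gadd45b, a stress-response gene, by 3.48 ± 0.48 (0.000247). The related factor Tox rose by 2.70 ± 0.36 (adjusted p = 0.00017), Ikzf2, the Helios factor, by 2.33 ± 0.16 (4.45e-07) and Bcl2l11, which encodes the death mediator Bim, by 2.02 ± 0.22 (3.01e-05). Between M2 and SM&M1 cells, 4 of the 9 were lower in M2 cells and passed, and none was higher, with a median of -1.10. Tox2 fell by 1.47 ± 0.28 (adjusted p = 0.0154), Bcl2l11 by 1.30 ± 0.22 (0.00732), Pdcd1 by 1.28 ± 0.28 (0.0276) and Ikzf2 by 1.19 ± 0.16 (0.00134). The same 4 genes were lower and passed in SM&M1 against PostDP cells, with log2 changes of -2.15 for Tox2, -1.15 for Bcl2l11, -1.28 for Pdcd1 and -1.66 for Ikzf2. In Tak1-deficient against SM&M1 cells, Ikzf2 alone passed, at -0.78 ± 0.16 (adjusted p = 0.0255).

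Genes reported as Egr targets were counted in the same way. In PostDP against PreDP cells 6 of 10 were higher and passed and none was lower, with a median of 1.08. Besides Cd69, whose protein was used to sort these groups, they were Ndrg1 at 3.66 ± 0.19 (adjusted p = 4.77e-08), the survival gene Bcl2 at 3.15 ± 0.23 (1.1e-06), Id3, an inhibitor of E proteins, at 1.43 ± 0.22 (0.000534), Fasl at 1.31 ± 0.29 (0.00727) and Nfatc1. None of the 10 passed in M2 against SM&M1 cells, with a median of -0.09. Among Egr4 and other partners of the NAB proteins, 1 of 8 passed in PostDP against PreDP cells, the chromatin remodeller Chd3 at 1.83 ± 0.17 (adjusted p = 7.74e-06), and none in M2 against SM&M1 cells. Fasl and Nfatc1 each stand on 2 of the lists described here.

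**Figure D5:**
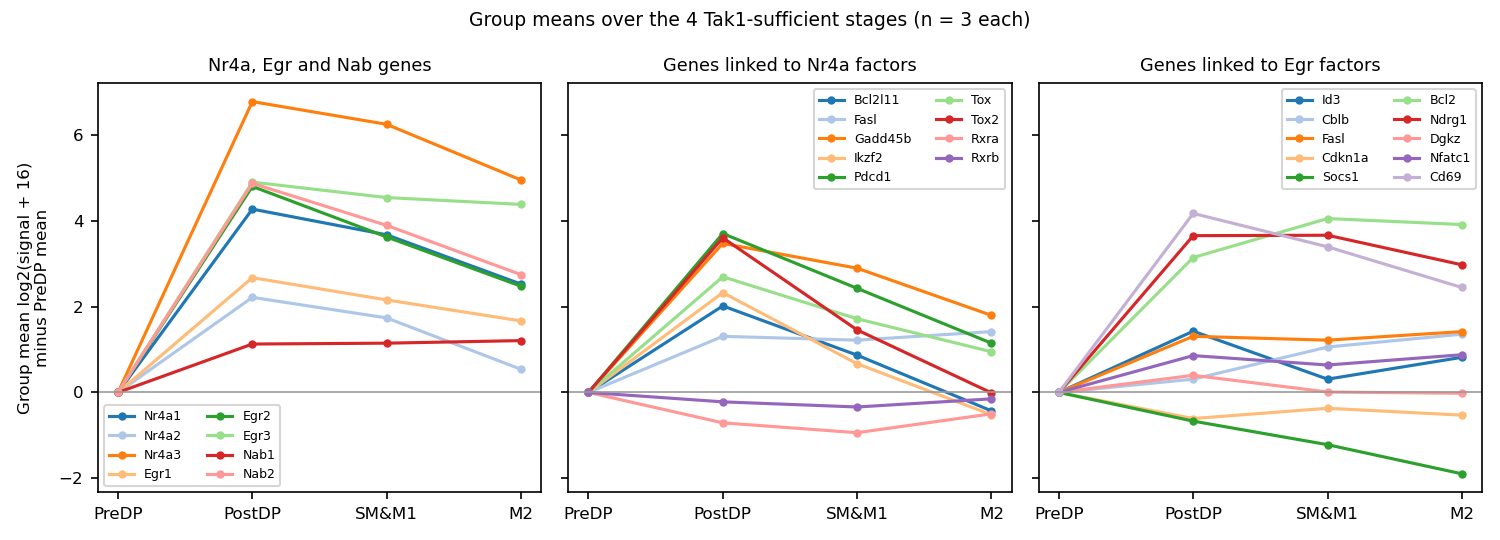
Group mean of log2(signal + 16) minus the PreDP mean at the PreDP, PostDP, SM&M1 and M2 stages, 1 line per tested gene, for the 8 genes (left), the Nr4a-linked genes (middle) and the Egr-linked genes (right). Tox2, Ikzf2, Pdcd1 and Bcl2l11 are lower in M2 than in SM&M1 cells, and Bcl2 and Ndrg1 lie above their PreDP means at each later stage.

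Other readouts of receptor signalling gave a further frame. In PostDP against PreDP cells 10 of 11 tested were higher and passed, with a median of 3.27. Apart from Cd69 they included Izumo1r, which encodes folate receptor 4, at 4.23 ± 0.37 (adjusted p = 5e-06), Tnfrsf9, the costimulatory receptor 4-1BB, at 3.82 ± 0.23 (1.65e-07), Nfkbid, an atypical inhibitor of the NF-κB family, at 3.43 ± 0.22 (2.85e-07) and Cd5 at 3.03 ± 0.19 (2.51e-07). The readouts parted in SM&M1 against PostDP cells, where 3 were higher and 2 lower, with a median of -0.35. Of all 11871 genes tested, 1423 passed there in either direction, 492 of them as lower and the rest as higher. Irf4, a transcription factor, was higher at 2.61 ± 0.38 (adjusted p = 0.00059), as were Izumo1r at 1.84 ± 0.37 (0.0055) and Tnfrsf9 at 0.82 ± 0.23 (0.0361), and the repressor Gfi1 at -1.80 ± 0.30 (0.00186) and Pdcd1 were lower. In M2 against SM&M1 cells Pdcd1 and Tnfrsf9 were lower and passed, Tnfrsf9 with an adjusted p of 0.0394, and the median was -0.72. Dissociation and stress genes, which respond to handling and include other immediate-early genes, had 2 of 18 higher and 1 lower in PostDP against PreDP cells, with a median of 0.13. Ier2 rose by 1.90 ± 0.26 (adjusted p = 0.000251), Fosb by 1.53 ± 0.43 (0.0275), and Socs3 had -2.23 ± 0.50 (0.00801). Socs3 was higher in M2 than SM&M1 cells, at 3.13 ± 0.50 (adjusted p = 0.0053) and no other passed. In Tak1-deficient against SM&M1 cells 5 of the 18 were lower and passed, among them Jun at -3.84 ± 0.79 (adjusted p = 0.028) and Hspa1b at -3.40 ± 0.71 (0.0309), while none of the Nr4a, Egr and Nab genes did.

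Over the arrays the 8 genes followed each other to different degrees. The correlation of log2 levels over the 15 arrays was 0.53 between Nr4a2 and Nab1, the lowest pair, and 0.989 between Nr4a1 and Nab2, the highest. Over the 14 arrays without Tak1-deficient array 2 these pairs stood at 0.654 and 0.989. These values describe 5 groups that share stages and arrays. By the same measure, Egr1 was most like Nfkbid (0.994) and Egr2 most like Cd69 (0.988 over 15 and 0.989 over 14 arrays), and neither leading gene changed when array 2 was left out. The other leading genes did change. Nr4a1 was most like Hivep3 (0.982), Cd274 (0.981) and P2rx7 (0.977) over 15 arrays, and most like Bmi1 (0.996), Cd69 (0.995) and Nfkbid (0.992) over 14. Nr4a3 was most like Orai1 (0.983) over 15 arrays, and most like Itm2a (0.988) and then Orai1 (0.985) over 14. Nab2 was most like Cd5 (0.982) over 15 arrays and Cd69 (0.99) over 14. Egr3 was most like Lcp1, an actin-bundling protein gene, over 15 arrays (0.985) and Ephx1 over 14 (0.997). Nab1 was most like Retreg1 (0.971) over 15 arrays and Parp3 (0.977) over 14. Nr4a2 had the least close leading gene in both, Jarid2 (0.935) over 15 arrays and Kdm2b (0.959) over 14.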

How the data were processed

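RNA of 15 sorted thymocyte samples was amplified in a single round, biotin-labelled and hybridised to Affymetrix arrays, per the labels' protocols. The authors deposited a linear signal intensity for each of 45101 probe sets. Their algorithm and scaling were not given in the sources used here, and the mean of each array after removing 2% of probe sets at each end was 500. Values were used as log2(intensity + 16) with no further normalization, so fold changes are on that scale and understate those of dim genes. Of the probe sets, 34945 had 1 gene, 932 several, 9160 were unnamed here and 64 were controls. The platform annotation named the genes, and 34741 symbols were updated through RefSeq (GRCm38.p6). Genes above the array median on at least 3 arrays were tested.

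All 15 arrays entered 1 fit in limma 3.58.1 under R 4.3.3, with a mean for each group, 10 residual degrees of freedom, moderated statistics and Benjamini-Hochberg adjustment over all 11871 genes. Probe sets were compared in a fit of 21488 probe sets. The number of arrays limits precision. The samples are labelled biological replicates without naming separate animals, so p-values reflect only how these samples vary, which may be technical variation. Deviations of same-numbered samples correlated at 0.339, 0.275 and 0.411 in PostDP and PreDP and at 0.553, 0.436 and 0.326 in M2 and SM&M1 cells, so numbers were taken to pair these groups, and a block was an alternative. Further alternatives were fitting the compared groups alone, filtering at the 75th percentile or not at all, quantile normalization, median centring, the mean of all probe sets, 1 unit added before logs, trend and robust options, and leaving out each array. Leaving out 2 arrays together and the single probe sets were added after seeing the data. The genes and lists were chosen with earlier results of these data known. Named genes outside the 8 were the 3 most correlated with each, up to 6 members of a list that passed, by size of change, and check genes. Code was tested on simulated data.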

Additional observations from a re-analysis of the deposited data

How the results depend on the processing

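The 8 calls in PostDP against PreDP cells and the 7 in M2 against PreDP cells kept their direction and side of the threshold under every alternative run. Elsewhere the number of genes passing moved. In SM&M1 against PostDP cells it was 2 as reported, 5 when fitting the compared groups alone, 1 with no filter on dim genes, 1 with arrays centred on their medians, 1 with SM&M1 array 1 and M2 array 1 both left out, and 1 to 5 when single arrays were left out, with 5 without Tak1-deficient array 2 and 1 without PostDP array 2, PostDP array 3, SM&M1 array 1 or SM&M1 array 3. In M2 against SM&M1 cells it was 3 as reported and 2 to 5 without single arrays. Tak1-deficient against SM&M1 cells gave 0 as reported and 0 to 1. In Tak1-deficient SM&M1 against PostDP cells it was 3 as reported, 0 when fitting the compared groups alone, 0 with the replicate block as well, and 2 to 4 without single arrays. The causes were not tested.

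Reversals concerned only log2 differences that had not passed. With the mean of all probe sets, Egr3 stood at 0.14 in SM&M1 against PostDP, 0.20 in M2 against SM&M1, and 0.0694 when Tak1-deficient SM&M1 cells were set against PostDP cells, Nab1 at -0.19 in SM&M1 against PostDP cells, and Nr4a2 at -0.12 and Egr2 at 0.26 in Tak1-deficient against SM&M1 cells. Quantile normalization gave -0.0044 for Nab1 in SM&M1 against PostDP cells and 0.0304 for Nab2 in Tak1-deficient against SM&M1 cells, and centring gave -0.0627 for Nr4a2 in that comparison of Tak1-deficient cells. Leaving out single arrays gave -0.0098 to 0.0692 for Nab1 in SM&M1 against PostDP and -0.0108 to 0.13 for Nab1 in M2 against SM&M1 cells. For Tak1-deficient against SM&M1 cells it gave -0.53 to 0.47 for Nr4a2, -0.20 to 0.0633 for Egr1, -0.57 to 0.50 for Egr2, -1.25 to 0.0172 for Egr3 and -0.21 to 0.14 for Nab2.

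The replicate block, fitted on only the groups compared, gave 8 genes in PostDP against PreDP and 4 in M2 against SM&M1 cells, as that fit did without the block. Where numbers did not pair the groups, it gave 2 genes in SM&M1 against PostDP, with Nr4a1 no longer called (adjusted p = 0.0538) and Egr2 called (0.00982), 8 in M2 against PreDP, and 0 in both comparisons of Tak1-deficient cells, and samples correlated best with their own number for 2, 1, 0 and 0 of 3 numbers. Over all genes, 1772 passed in PostDP against PreDP cells as reported and 1171 to 2992 under the alternatives, 1423 and 825 to 2726 in SM&M1 against PostDP, 277 and 82 to 672 in M2 against SM&M1, 201 and 0 to 347 in Tak1-deficient against SM&M1, and 1292 and 0 to 1776 in Tak1-deficient SM&M1 against PostDP cells. The highest counts came without Tak1-deficient array 2. Genes below the array median, as Nr4a3 and Egr3 in PreDP cells, have changes that depend on the units added before logs. Centring moved the median of all genes by -0.11 in Tak1-deficient SM&M1 against PostDP, -0.145 in PostDP against PreDP, -0.151 in M2 against PreDP and -0.147 in Tak1-deficient against SM&M1 cells.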
